A study of Mus musculus with 8 samples.

Results

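The phosphoinositide 3-kinase (PI3K), AKT, mTOR and FOXO genes carry the signal of the insulin and insulin-like growth factor receptors into the cell. The 37 genes described here were taken by symbol: every row of the count tables whose NCBI gene ID belongs to one of the 37 names, out of 41591 gene IDs in all. They fall into 8 roles, namely PI3K regulatory subunits, PI3K catalytic subunits, PI3K brakes, AKT and related kinases, mTOR complexes and their outputs, mTOR brakes, FOXO factors and FOXO target genes. Messenger RNA was sequenced from whole ovaries of C57BL/6 females about 3 weeks old, with 4 libraries labelled Control and 4 labelled DKO. Controls were littermates labelled wild type and positive for Pgr-Cre, which expresses Cre recombinase from the progesterone receptor gene Pgr. DKO stands for the conditional double knockout of Insr and Igf1r, the genes of the insulin and insulin-like growth factor 1 receptors. The label of the DKO libraries does not itself name the Cre that deleted them. Both groups were superovulated: eCG (equine chorionic gonadotropin, 4 IU) was given first, and hCG (the human hormone, 5 IU) after 48 h. Ovaries were collected 12 h after hCG. The study compared DKO with control ovaries, which asks which genes depend on the 2 receptors around ovulation.

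An activated receptor recruits PI3K, whose catalytic subunits (p110) are held by regulatory subunits (p85 and p55) and which makes the membrane lipid PIP3. PIP3 brings the kinases PDK1 and AKT to the membrane. AKT then relieves the TSC brake on the kinase mTOR, which drives protein synthesis, and phosphorylates FOXO transcription factors, which leave the nucleus so that their target genes are less transcribed. In the ovary FOXO3 is known for holding oocytes dormant. The pathway is known there for the growth, survival and differentiation of granulosa cells, in which FOXO1 is abundant. Much of the pathway is set by phosphorylation of proteins, which messenger RNA does not show.

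Depth was even, with 33145056 to 39257648 counts per library. The targeted genes still gave counts in all libraries: Insr averaged 155 ± 10.3 CPM in controls and 126 ± 16.8 CPM in DKO (SD, n = 4 each), and Igf1r 236 ± 28.6 and 214 ± 22.4 CPM. CPM are counts scaled to library size, here with TMM factors. Neither passed edgeR's quasi-likelihood test (adjusted p = 0.226 and 0.639), the labels do not say which exons were deleted, and cells without Pgr-Cre are in the same RNA. Pgr, the gene that drives the Cre of the controls, averaged 4.86 ± 1.75 CPM in controls and 1.61 ± 0.537 CPM in DKO. All DKO libraries lay below all controls, with a log2 fold change of -1.59 ± 0.36 (adjusted p = 0.0665). Markers of granulosa, theca, luteal, endothelial, smooth muscle and oocyte cells were present in all 8 libraries. Summed luteal markers were higher in all DKO libraries (15668 to 21362 CPM) than in controls (8036 to 14858 CPM), while summed neutrophil markers were lower in all (2.89 to 5.21 against 7.14 to 30.4 CPM). Oviduct markers stood apart in control 1 (1371 CPM) and DKO 2 (866 CPM), against 48.1 to 80.7 CPM in the other libraries. In RNA of a whole ovary, fewer cells of a type and less RNA per cell cannot be told apart, and the part of these marker differences in any result on the 37 genes was not tested.

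No member of the pathway set passed the test between DKO and control ovaries. Of the 37, 36 had enough counts to be tested and 0 reached an adjusted p under 0.05 in edgeR's quasi-likelihood test, where 1.26% of all 16870 genes tested did (0.759% higher in DKO and 0.498% lower). At an unadjusted p under 0.05 there were 4 members, or 11.1%, against 15.4% of all genes: 2 higher in DKO (Pik3r3 and Cdkn1b, against 8.43% of all genes) and 2 lower (Ddit4 and Rictor, against 6.98%). Other tools made calls on the same counts: DESeq2 called 3 members (Pik3r3, Cdkn1b and Ddit4) and 6.63% of all genes, limma-voom 0 members and 1.26%, and limma-voom with quality weights the same 3 members with Rictor, Foxo1 and Pik3ip1, and 9.79% of all genes. With the replicate number as a block, edgeR called 1 member (Ddit4) and 4.4% of all genes. Without control 1 and DKO 2, the libraries high in oviduct markers, edgeR called 0 members and 0.576% of all genes. Leaving out any single library gave 0 members, except 1 (Rictor) without control 3, where 2.95% of all genes were called. Replicates are separate samples by their labels, which do not say in so many words that each is 1 animal, so p-values measure the spread between these samples.

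Differences ran in both directions. On the log2 scale of DKO over control, the members ran from -0.58 (Ddit4) to 0.83 (Cdkn1b) with a median of -0.11, beside a median of -0.02 for all genes tested. Negative values were held by 23 members (63.9%), against 53.1% of all genes, and positive ones by 13, against 46.9% of all genes. In 2 members (5.56%) no DKO library overlapped the controls, Pik3r3 with all DKO higher and Ddit4 with all DKO lower; over all genes the groups did not overlap in 9.24%, 5.7% with all DKO higher and 3.54% with all DKO lower. For 22 members (61.1%) the 95% interval of the fold change lay wholly within 1.5-fold either way, as it did for 44.1% of all genes. For the other 14 tested members the interval reached past 1.5-fold on at least one side, so 4 against 4 libraries did not bound their difference to that size.

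**Figure D1:**
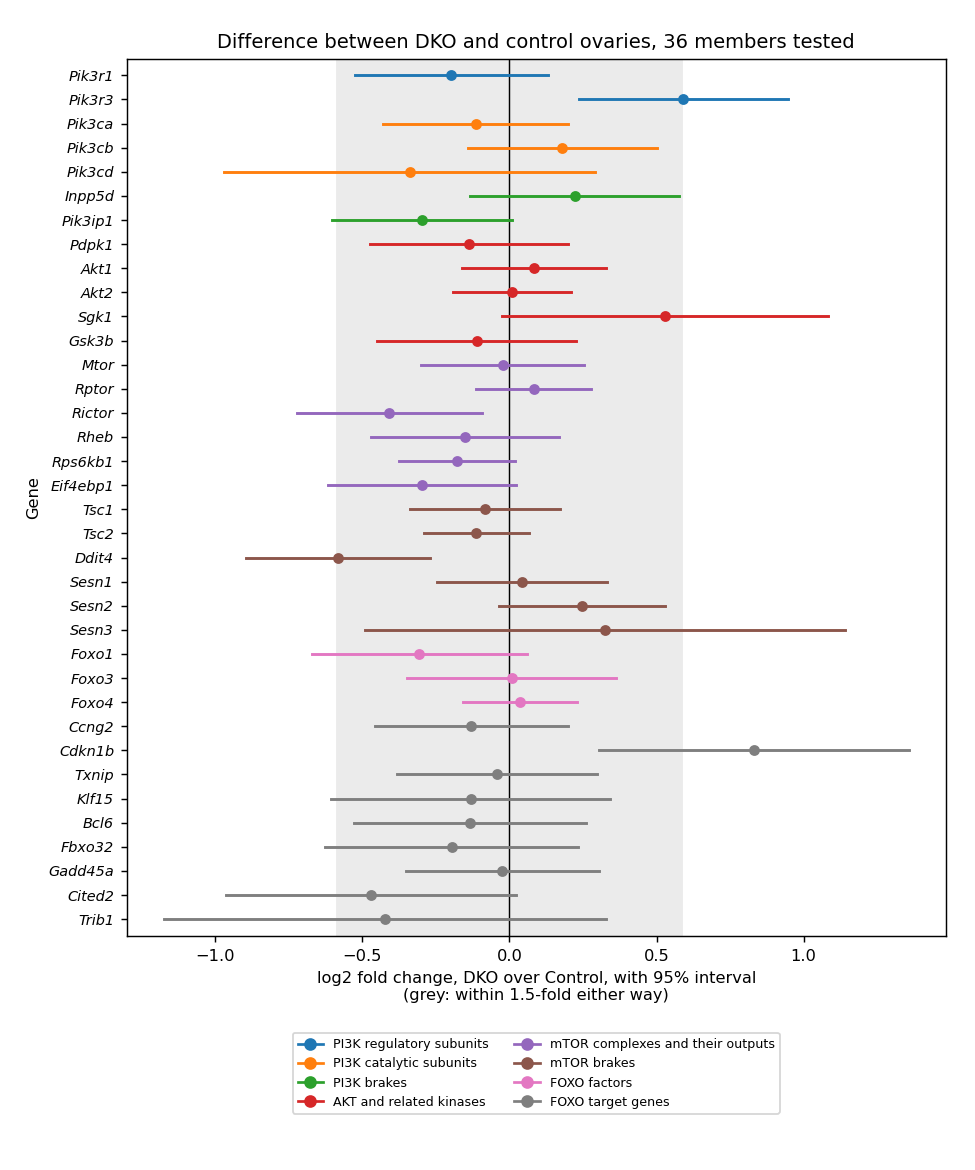
Log2 fold change of DKO over control for the 36 tested members (points) with 95% intervals from edgeR's quasi-likelihood fit (lines), coloured by role; the grey band marks 1.5-fold either way. Pik3r3 (0.59), Cdkn1b (0.83), Ddit4 (-0.58) and Rictor (-0.41) are the members whose intervals do not cross 0, and none passed after adjustment over all genes.

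Levels per length were compared as RPKM, CPM per kilobase of exon, over 34 members. Pik3r2, Pik3cd and Mtor were left out because the annotation lists their exons on a chromosome and again on a patch or alternate sequence, where counts can be lost. Protein-coding genes listed on more than 1 sequence (1010) had a median of 8 counts summed over the libraries and 33.5% of them were tested, against 2457 counts and 69.4% for the 20651 others. The most abundant member was Cited2, a transcriptional co-regulator, at a mean level of 242 RPKM over the 8 libraries, which is the 98.7th percentile of genes tested. After it came Txnip (174 RPKM), Sgk1 (127 RPKM), Akt1 (111 RPKM), Eif4ebp1 (88.6 RPKM), Ddit4 (79.2 RPKM) and Foxo1 (77.9 RPKM). At the low end stood Klf15 (3.38 RPKM), Pik3cb (3.15 RPKM) and Inpp5d (2.17 RPKM). The subunits that define the mTOR complexes, Rptor (8.35 RPKM) and Rictor (6.18 RPKM), lay near the middle of all genes tested, at the 58.6th and 52.0th percentiles.

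**Figure D2:**
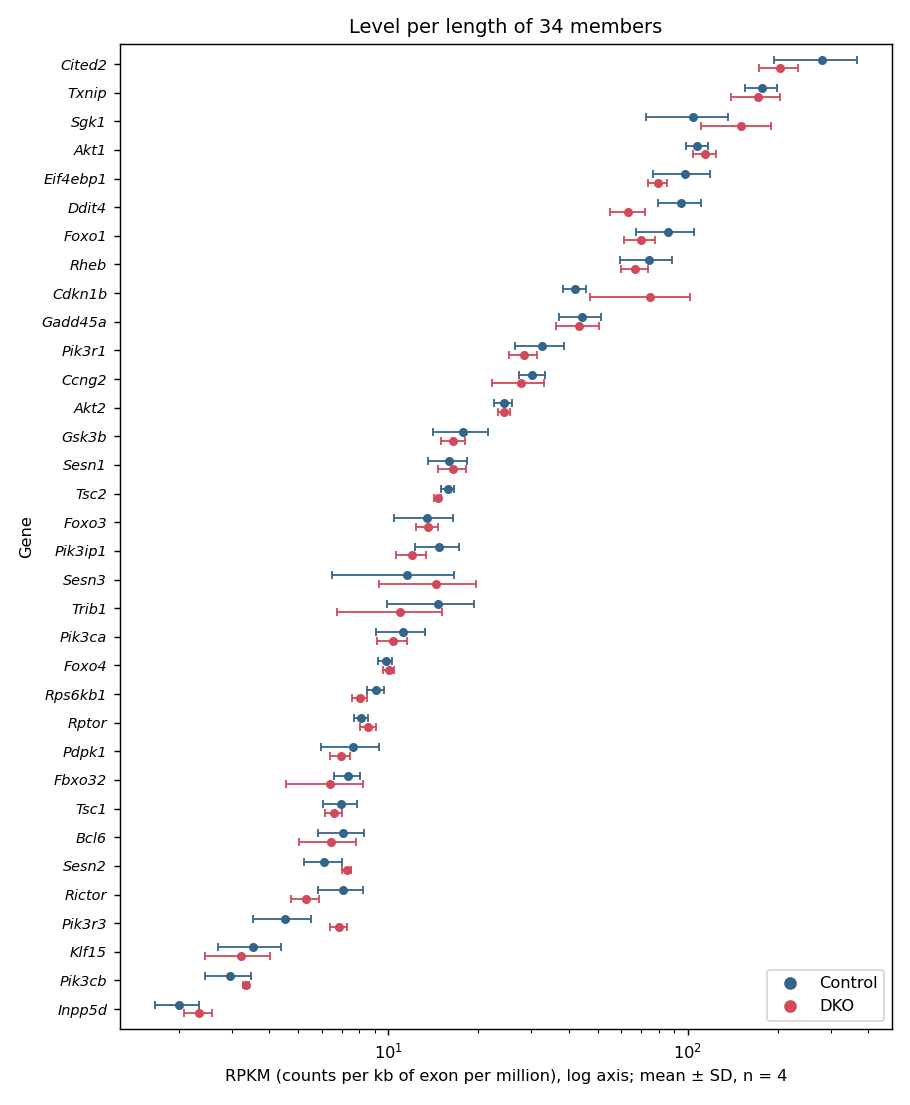
Mean level per length (RPKM, log axis) of 34 members in control (blue) and DKO (red) ovaries; bars are SD, n = 4 each. Cited2 leads at 242 RPKM over all libraries and Inpp5d is lowest at 2.17 RPKM; the group bars overlap for most members.

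Of the PI3K regulatory subunits Pik3r1 and Pik3r3, Pik3r1 had the higher RPKM and Pik3r3 showed the groups apart, while the level of Pik3r2 is not known from these counts. Pik3r3 encodes p55-gamma (NCBI gene 18710, chr4:116221421-116303056, plus strand, GRCm38.p5). It read 30.1, 25.0, 17.8 and 29.5 CPM in controls 1 to 4 and 36.96, 42.3, 36.6 and 38.6 CPM in DKO 1 to 4. All 4 DKO libraries lay above the highest control, with control 3 lowest. Pik3r3 had a log2 fold change of 0.59 ± 0.16 (SE), with adjusted p = 0.112 in edgeR's quasi-likelihood test. DESeq2 called it, and its adjusted p ran from 0.0124 to 0.299 over 21 alternatives.

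Pik3r1 encodes p85-alpha and its shorter forms (NCBI gene 18708, chr13:101680761-101768217, minus strand). It stood at 254, 338, 312 and 401 CPM in the controls and 278, 264, 265 and 329.6 CPM in DKO. The groups overlapped, control 1 being the lowest library of all, and the log2 fold change was -0.20 ± 0.15 (adjusted p = 0.584). Of the summed RPKM of the 2 genes, Pik3r3 held 12.4 ± 3.47% in controls and 19.5 ± 2.04% in DKO (SD, n = 4). Its share overlapped between the groups, with control 1 at 17.4% and DKO 4 at 17.2%. Pik3r2, which encodes p85-beta, had 6, 5, 0 and 3 counts in controls and 0, 3, 1 and 2 counts in DKO. It was not tested, and since its exons are listed on more than 1 sequence these counts are no measure of its level.

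The catalytic subunits showed no difference past their spread. Pik3ca, the gene of p110-alpha, the isoform best known for insulin signalling (NCBI gene 18706, chr3:32397069-32468486, plus strand), read 107, 104, 82.9 and 131 CPM in controls and 91.1, 93.9, 92.6 and 115 CPM in DKO. Its groups overlapped and its log2 fold change was -0.11 ± 0.14 (adjusted p = 0.767). Pik3cb, the gene of p110-beta (NCBI gene 74769, chr9:99038402-99140211, minus strand), read 17.4, 16.6, 11.6 and 17.0 CPM in controls and 17.9, 17.1, 17.7 and 18.1 CPM in DKO. Control 3 stood below the other 7 libraries, which lay between 16.6 and 18.1 CPM, and the log2 fold change was 0.18 ± 0.14 (adjusted p = 0.616). Pik3cb held 20.9 ± 1.77% of the summed RPKM of Pik3ca and Pik3cb in controls and 24.6 ± 1.80% in DKO, with overlap.

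Pik3cd encodes p110-delta and the brake Inpp5d encodes SHIP1, a phosphatase that removes a phosphate from PIP3. Both are known for high levels in blood cells. Pik3cd ran from 1.83 to 2.85 CPM in controls and from 1.35 to 2.51 CPM in DKO (log2 -0.34 ± 0.28, adjusted p = 0.632). Inpp5d ran from 8.99 to 12.8 CPM in controls and from 10.7 to 13.6 CPM in DKO (log2 0.22 ± 0.16, adjusted p = 0.570). Neither passed the test, and their differences had opposite signs. The value of Pik3cd rests on counts that may be incomplete, because its exons are listed on more than 1 sequence. The 10 leukocyte markers summed to 58.8 to 77.1 CPM in controls and 48.8 to 58.2 CPM in DKO, lower in every DKO library, with Ptprc detected in both groups. Laptm5 had 0 counts in all 8, which is no measure of its level since its exons too are listed on more than 1 sequence. Their part in the values of Pik3cd and Inpp5d was not tested.

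Pik3ip1, the other brake, encodes a membrane protein that binds p110 and lowers PI3K activity (NCBI gene 216505, chr11:3329508-3342971, plus strand). Its CPM were 50.8, 68.8, 49.2 and 64.5 in controls and 55.0, 47.6, 42.8 and 44.3 in DKO. DKO 1 lay above controls 1 and 3, and the other DKO libraries lay below every control. Its log2 fold change was -0.30 ± 0.14 (adjusted p = 0.339).

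The AKT kinases were level between the groups, and Sgk1 was the uneven member of this role. Akt1, the gene of the most widely expressed AKT (NCBI gene 11651, chr12:112653821-112674796, minus strand), stood at 296, 303, 353 and 339.7 CPM in controls and 332, 305, 375 and 356 CPM in DKO. The groups overlapped, with a log2 fold change of 0.08 ± 0.11 and a 95% interval of -0.16 to 0.33. Akt2, the isoform tied to glucose uptake, had a log2 fold change of 0.01 ± 0.09 with an interval of -0.19 to 0.21. Akt1 held 81.6 ± 0.448% of their summed RPKM in controls and 82.3 ± 0.852% in DKO, the steadiest share of the 5 gene families compared. Pdpk1, the gene of PDK1, and Gsk3b, a kinase that AKT inhibits, had log2 fold changes of -0.14 ± 0.15 and -0.11 ± 0.15 (adjusted p = 0.731 and 0.789).

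Sgk1 encodes a kinase related to AKT that also phosphorylates FOXO factors (NCBI gene 20393, chr10:21882184-21999903, plus strand). It read 337, 307, 576 and 516 CPM in controls and 779.9, 751, 442 and 532 CPM in DKO. DKO 1 and 2 stood above every other library, while DKO 3 and 4 lay within the range of the controls. Sgk1 had a log2 fold change of 0.53 ± 0.25 (adjusted p = 0.353). Each sample title carries a number whose meaning the labels do not give, low for control 1, DKO 1 and DKO 2 and higher for the other 5 libraries. Within those 5, the log2 fold change of Sgk1 was 0.08.

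In the mTOR group, 5 of 6 members (83.3%) had negative log2 fold changes, with a median of -0.17 over the 6, and none passed. The negative share was 53.1% over all genes and 44.1% over the 34 other mTOR genes. Rictor, the subunit that defines mTOR complex 2, a kinase of AKT (NCBI gene 78757, chr15:6708349-6800401, plus strand), had the smallest p. Its CPM were 75.4, 66.6, 50.2 and 73.5 in controls and 47.0, 55.9, 44.0 and 53.1 in DKO. Control 3 was the only control inside the DKO range. Rictor had a log2 fold change of -0.41 ± 0.14 (adjusted p = 0.193). Without control 3 it was -0.52 with an adjusted p of 0.0409, past the threshold; over 21 alternatives the adjusted p ran from 0.0282 to 0.511.

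Rptor, which defines mTOR complex 1, had a log2 fold change of 0.08 ± 0.09, with an interval of -0.11 to 0.28. Mtor itself was -0.02 ± 0.12, a value that rests on counts that may be incomplete because its exons are listed on more than 1 sequence. Rheb, the small GTPase that activates complex 1, was at -0.15 ± 0.14, and Rps6kb1, the gene of S6 kinase, at -0.18 ± 0.09 (adjusted p = 0.678 and 0.375). Eif4ebp1 encodes a repressor of cap-dependent translation that complex 1 switches off (NCBI gene 13685, chr8:27260327-27275656, plus strand). It read 77.5, 86.5, 125 and 94.9 CPM in controls and 85.9, 78.8, 73.5 and 73.7 CPM in DKO. Control 3 was highest, the groups overlapped through control 1, and the log2 fold change was -0.30 ± 0.14 (adjusted p = 0.364).

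The brakes on mTOR held the member with the smallest adjusted p. Ddit4 encodes REDD1, a stress-induced protein that acts through TSC to lower complex 1 activity (NCBI gene 74747, chr10:59949675-59951770, minus strand). Its CPM were 135, 160.5, 196 and 149 in controls and 89.7, 112, 102 and 124 in DKO. Every DKO library lay below the lowest control, DKO 4 and control 1 being nearest to each other. Ddit4 had a log2 fold change of -0.58 ± 0.14, with a 95% interval of -0.89 to -0.27 and adjusted p = 0.0830 in edgeR's quasi-likelihood test. DESeq2, limma-voom with quality weights and edgeR with the replicate number as a block called it, the adjusted p running from 0.00459 to 0.228 over 21 alternatives.

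The TSC genes, which encode the complex that holds Rheb inactive, were nearly level: Tsc1 at log2 -0.08 ± 0.11 and Tsc2 at -0.11 ± 0.08, with intervals of -0.34 to 0.17 and -0.29 to 0.07. The sestrins are stress proteins that lower complex 1 activity, and Sesn1 and Sesn3 are known FOXO targets. Sesn1 had a log2 fold change of 0.04 ± 0.13 and Sesn2 of 0.25 ± 0.13 (adjusted p = 0.907 and 0.393). Sesn3 ranged from 11.1 CPM in control 3 to 47.4 CPM in DKO 2, wider than the difference between groups (log2 0.32 ± 0.36). Sesn1 held 48.4 ± 5.98% of the summed RPKM of the sestrins in controls and 43.5 ± 4.40% in DKO, Sesn3 33.0 ± 8.25% and 37.1 ± 7.17%, and Sesn2 the rest.

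**Figure D3:**
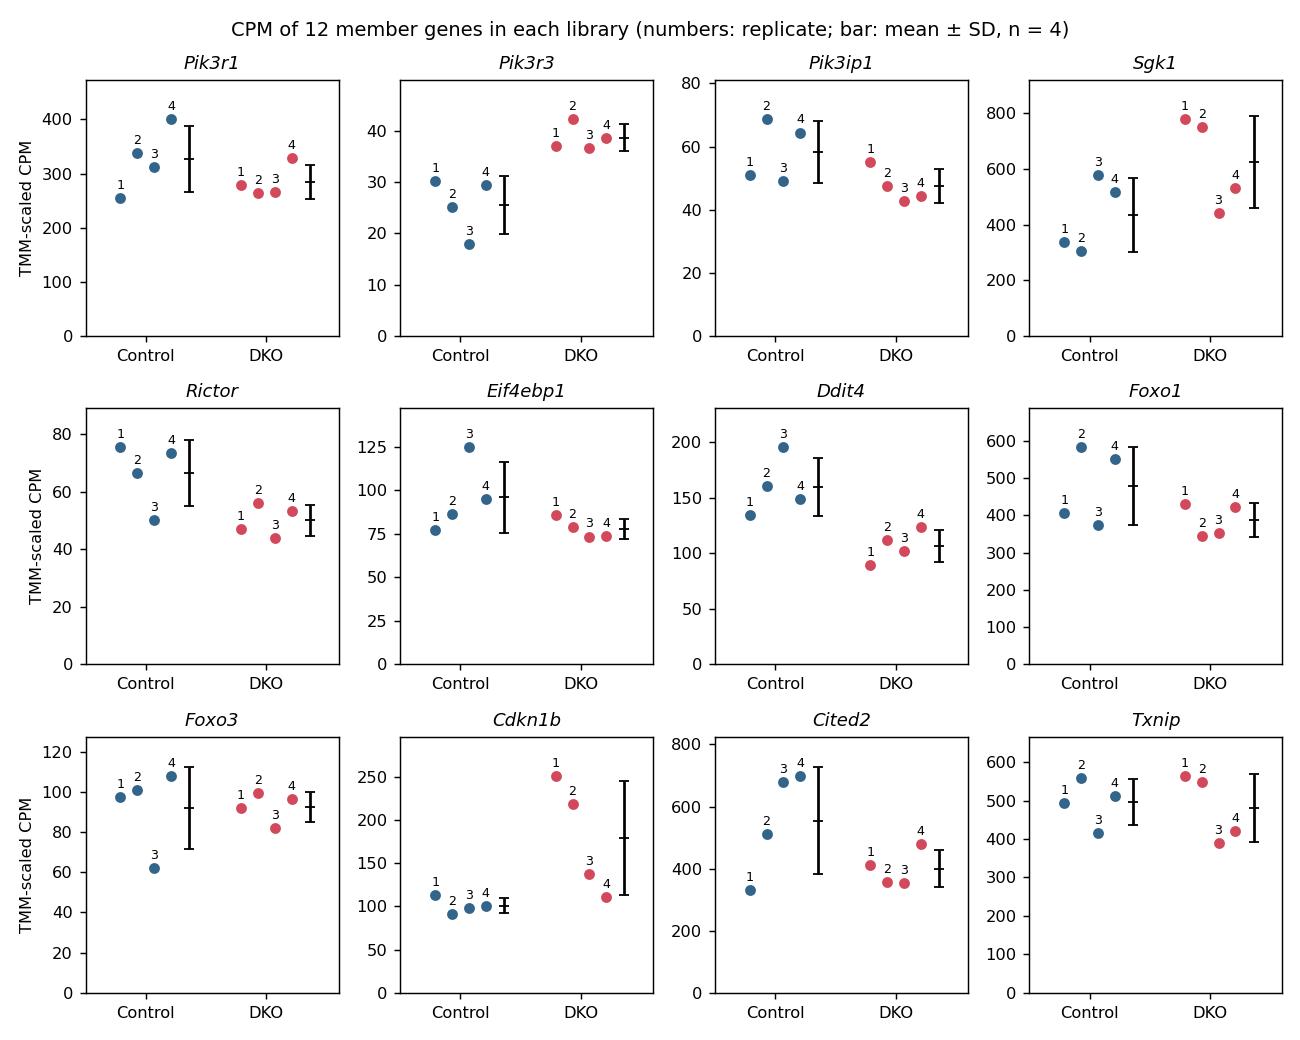
CPM of 12 members in each library (numbers give the replicate), with the mean and SD (n = 4) beside each group; every axis starts at 0. Pik3r3 and Ddit4 show no overlap, DKO 1 and 2 are highest for Sgk1 and Cdkn1b, and control 3 is lowest for Pik3r3, Rictor and Foxo3 among the controls.

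Foxo1 was the main FOXO gene of these ovaries. It held 78.5 ± 2.32% of the summed RPKM of Foxo1, Foxo3 and Foxo4 in controls and 74.6 ± 2.03% in DKO, and the groups overlapped. Foxo1 (NCBI gene 56458, chr3:52268337-52350109, plus strand) read 405, 582, 374 and 551 CPM in controls and 429.9, 344, 351 and 422 CPM in DKO. Controls 2 and 4 stood above all DKO libraries, controls 1 and 3 within their range. The log2 fold change was -0.31 ± 0.16 (adjusted p = 0.418). The summed granulosa markers overlapped between the groups (2355 to 3143 CPM in controls, 2781 to 3424 CPM in DKO). Of these 8 markers only Foxl2 showed no overlap, with all DKO libraries higher. Its log2 fold change was 0.58 ± 0.13 (adjusted p = 0.0716 in edgeR's quasi-likelihood test). The part of granulosa cells in the values of Foxo1 was not tested.

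Foxo3, whose protein keeps primordial follicles dormant (NCBI gene 56484, chr10:42181845-42276746, minus strand), read 97.3, 101, 62.3 and 108 CPM in controls and 92.1, 99.4, 82.0 and 96.5 CPM in DKO. All libraries but control 3 lay between 82.0 and 108 CPM, and the log2 fold change was 0.01 ± 0.16 with an interval of -0.35 to 0.36. Foxo4 (NCBI gene 54601, chrX:101254259-101260873, plus strand) read 48.8, 50.9, 45.8 and 51.8 CPM in controls and 50.3, 48.0, 50.5 and 53.5 CPM in DKO. It was among the most even members, at 0.04 ± 0.09 with an interval of -0.16 to 0.23. The sign of Foxo3 turned under some settings, with values from -0.14 to 0.09.

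Of the 9 genes in the FOXO target role, 8 (88.9%) had negative log2 fold changes and Cdkn1b a positive one. Over all genes the negative share was 53.1%. The median of the 9 was -0.13 and none passed edgeR's quasi-likelihood test. Sesn1 and Sesn3, FOXO targets counted with the mTOR brakes, had positive values (0.04 and 0.32). So did 10 of the 23 other FOXO genes and targets tested. Cdkn1b encodes p27, an inhibitor of cyclin-dependent kinases that rises as granulosa cells leave the cell cycle (NCBI gene 12576, chr6:134920401-134925525, plus strand). Its CPM were 113, 91.6, 98.4 and 101 in controls and 251, 218, 137 and 111 in DKO. The controls were close together, DKO 1 and 2 were far above them, DKO 3 was less so, and DKO 4 lay just below control 1. The log2 fold change was 0.83 ± 0.23, the largest of the members in size (adjusted p = 0.130). Within the 5 libraries with the higher title numbers it was 0.38, and with a term for that split 0.60. Summed luteal markers had the other order, with DKO 3 and 4 (21362 and 20667 CPM) above DKO 1 and 2 (16669 and 15668 CPM). Star, Cyp11a1 and Scarb1 followed that order, while Lhcgr, Ptgfr and Hsd3b1 did not. Star did so most widely, at 821 and 907 CPM in DKO 1 and 2 against 3267 and 3396 CPM in DKO 3 and 4. The part of luteal cells in the values of Cdkn1b was not tested.

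Cited2 (NCBI gene 17684, chr10:17723228-17725674, plus strand) read 332, 511, 678 and 699 CPM in controls and 411, 358, 353 and 479 CPM in DKO. Control 1 was the lowest library of all, and the other controls stood above every DKO library. The log2 fold change was -0.47 ± 0.22 (adjusted p = 0.350). Trib1, a pseudokinase gene, had the largest SE of the genes in the FOXO target role (log2 -0.42 ± 0.33). It ran from 36.8 to 77.4 CPM in controls and from 21.5 to 58.8 CPM in DKO. Fbxo32, the gene of the ubiquitin ligase atrogin-1, was at -0.20 ± 0.19. Ccng2, an atypical cyclin that FOXO factors raise, was at -0.13 ± 0.15. Within the 5 libraries with the higher title numbers both differences were larger, at -0.56 and -0.42. Those of Sgk1 and Cdkn1b were smaller there. Bcl6, a transcriptional repressor, was at -0.13 ± 0.18, Klf15, a regulator of metabolism, at -0.13 ± 0.21, and Gadd45a, a growth arrest gene, at -0.02 ± 0.15.

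The short FOXO motif GTAAACA was searched on both strands (TGTTTAC on the other) in the 250 bases before each annotated gene start, in RefSeq sequences of GRCm38.p6. Of 33 members with such sequences, 2 held it (6.06%), Txnip and Akt1, against 956 of 27025 genes (3.54%). The 2 windows are shown because they are the ones that carry the motif, which is in capitals. That of Txnip is chr3:96557707-96557956 on the plus strand, with the motif starting 121 bases before the gene start. That of Akt1 is chr12:112674885-112675134 on the minus strand, with the motif starting 161 bases before the most upstream start.
Txnip: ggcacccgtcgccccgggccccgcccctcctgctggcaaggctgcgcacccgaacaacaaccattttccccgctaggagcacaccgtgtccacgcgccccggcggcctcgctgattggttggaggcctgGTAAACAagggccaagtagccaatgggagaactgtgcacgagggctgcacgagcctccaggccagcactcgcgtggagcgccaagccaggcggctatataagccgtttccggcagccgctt
Akt1: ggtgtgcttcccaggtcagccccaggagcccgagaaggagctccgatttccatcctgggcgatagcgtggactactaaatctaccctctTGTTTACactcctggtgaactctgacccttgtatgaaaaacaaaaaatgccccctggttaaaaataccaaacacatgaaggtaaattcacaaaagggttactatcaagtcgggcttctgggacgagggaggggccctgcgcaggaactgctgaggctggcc
The promoter windows of Pik3r3, Cdkn1b and Ddit4 were searched as well and do not hold these letters. Txnip encodes an arrestin-like protein that limits glucose uptake and is a known FOXO target. It read 493, 559.6, 416 and 512 CPM in controls and 564, 549, 389 and 421 CPM in DKO. The groups overlapped over nearly their whole range, with a log2 fold change of -0.04 ± 0.15 and an interval of -0.38 to 0.30. As given above, the groups of Akt1 overlapped too. A match is a run of letters in a window and no measurement of FOXO binding.

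The members varied between libraries of a group along lines that the group labels do not give. In 12 members (33.3%) DKO 1 and 2 both lay above DKO 3 and 4, among them Sgk1, Cdkn1b, Pik3ip1, Txnip, Ccng2, Fbxo32 and Gadd45a; all genes tested did so at 29.3%. In 9 members (25.0%), among them Akt1, Inpp5d, Klf15 and Trib1, both lay below, against 28.3% of all genes. Either pattern held in 58.3% of members and 57.7% of all genes, so the members followed the DKO split about as often as other genes did.

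**Figure D4:**
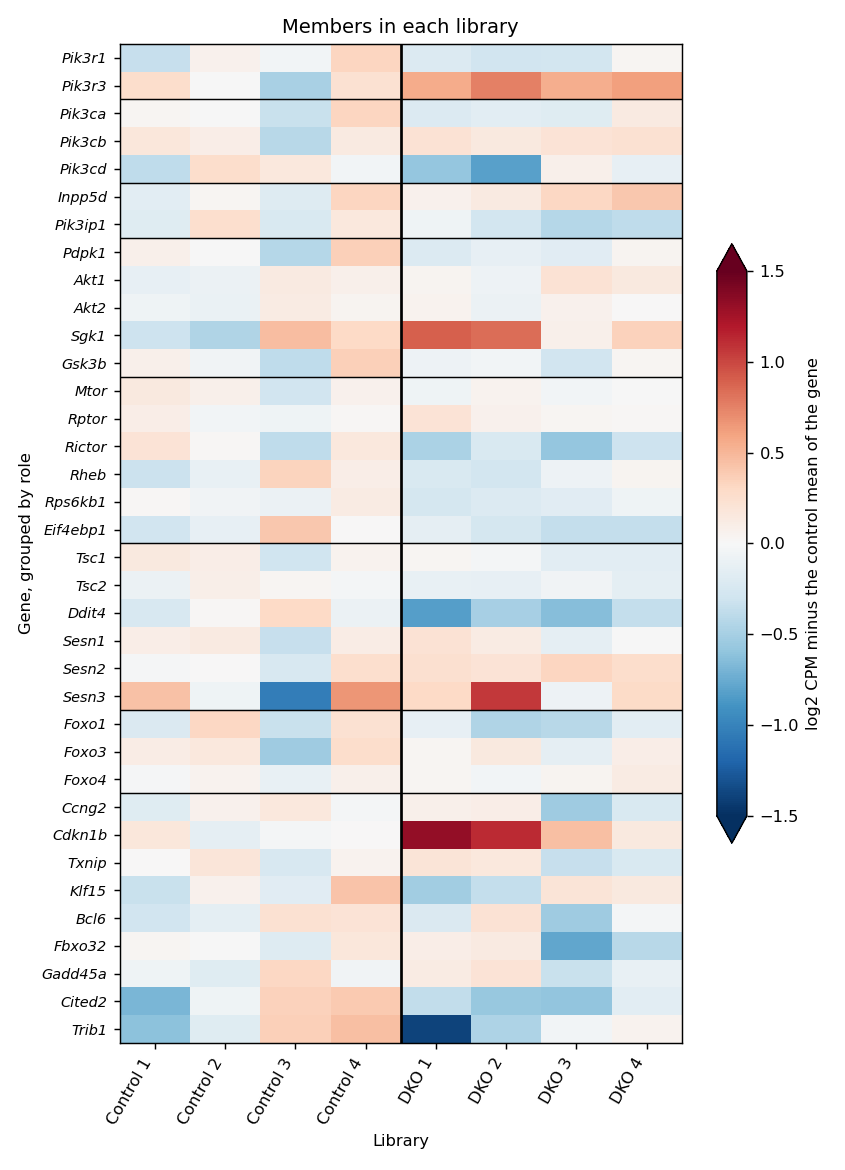
Log2 CPM of each tested member minus its control mean (colour, red above and blue below) in the 8 libraries, members in rows by role, libraries in columns. Cdkn1b and Sgk1 are strongest in DKO 1 and 2, Ddit4 is below the control mean in all 4 DKO libraries, and the column of control 3 differs from the other controls over many members.

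Control 3 departed from the other controls along exon length. Over the 16870 genes, its log2 deviation from the other controls had a Spearman correlation of -0.49 with exon length, given as a description across genes that share 1 library. The median deviation was -0.24 in the 4989 genes of at least 5000 bases and 0.26 in the 4122 genes under 2000 bases. Among members of at least 5000 bases, 17 of 21 lay below the other controls, with a median of -0.25. Among the 15 shorter members 6 did so, with a median of 0.20. Control 3 was the lowest control in 20 of the 36 members (55.6%), against 31.8% of all genes, Pik3r3, Pik3cb, Rictor and Foxo3 among them. The shorter members Ddit4, Eif4ebp1 and Rheb read highest in control 3. Without control 3 the fold change of Foxo3 was -0.14, that of Rictor -0.52, and edgeR called 506 of all genes rather than 212.

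**Figure D5:**
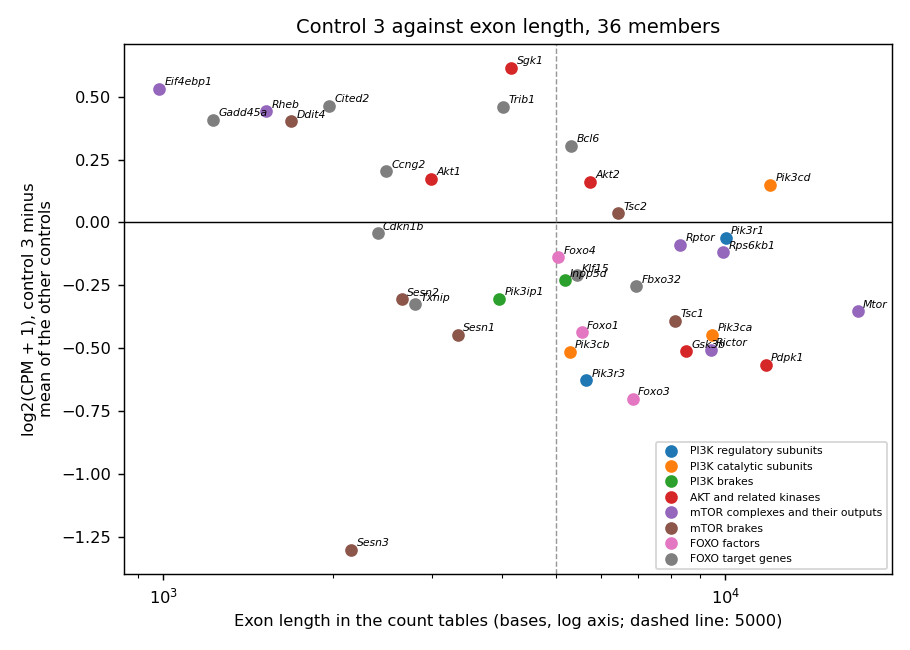
Deviation of control 3 from the mean of the other controls, log2(CPM + 1), against exon length in bases (log axis) for the 36 tested members, coloured by role; the dashed line is at 5000 bases. Of the 21 members to its right 17 lie below 0, against 6 of the 15 to its left.

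The other genes of the pathway, 86 from a list that leaves out the 37, also held no call. Of 81 tested, 0 passed edgeR's quasi-likelihood test; 13 (16.0%) had an unadjusted p under 0.05, 7 higher and 6 lower, against 15.4% of all genes. Their median log2 fold change was 0.02, and they ran from -1.07 (Pdk4) to 1.63 (Pik3c2g). Among 15 other PI3K and phosphoinositide genes 12 had positive values, among 9 other AKT genes 3, among 34 other mTOR genes 19, and among 23 other FOXO genes and targets 10.

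Cat, the gene of catalase, which breaks down hydrogen peroxide, had the smallest adjusted p of the list. It read 109, 116, 116 and 131 CPM in controls and 158, 154, 154 and 154 CPM in DKO. All DKO libraries lay above all controls and close together, with a log2 fold change of 0.40 ± 0.09 (adjusted p = 0.0655). Prdx3, a mitochondrial peroxidase gene picked after its values were seen, was the other of the 81 tested genes with no overlap (2 genes or 2.47%, against 9.24% of all genes), at 109, 127, 149.9 and 121 CPM in controls and 159, 157, 245 and 225 CPM in DKO (log2 0.63 ± 0.17, adjusted p = 0.109). G6pc, the gene of a glucose-producing phosphatase, had too few counts to be tested and read 0 to 0.110 CPM in controls and 0.236 to 0.554 CPM in DKO, also with no overlap. Pdk4, whose kinase turns cells from glucose to fat oxidation, read 37.1, 80.7, 92.0 and 99.4 CPM in controls and 28.9, 33.5, 34.3 and 50.3 CPM in DKO. Control 1 was the one control in the DKO range, and the log2 fold change was -1.07 ± 0.30 (adjusted p = 0.130). Without control 1 it was -1.29 and passed. Over the 21 alternatives Cat was called in 7, Pdk4 in 6 and Prdx3 in 5, with adjusted p from 0.000338 to 0.287, 0.00636 to 0.312 and 0.0118 to 0.284. Cat, Prdx3 and Pdk4 are known FOXO targets, the first 2 with positive differences and the last with a negative one.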

How the data were processed

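Per the file headers, the authors' deposited raw counts came from featureCounts (Subread 1.5.2), which summed stranded reads over exons by gene ID with the reverse-strand setting on RefSeq GRCm38.p5. STAR 2.4.2a, edgeR 3.12.0, bcl2fastq 2.17.1.14 and Trimmomatic (0.33 and 0.36) are named in the submitters' processing notes. Libraries were stranded and poly(A)-selected, per the labels' protocols. Here symbols came from RefSeq of GRCm38.p6 (40290 of 41591 IDs matched), and the count tables gave the coordinates.

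Genes passing filterByExpr (16870) were fitted with edgeR 4.0.16 in R 4.3.3: TMM factors, robust quasi-likelihood F-test, no covariate, two-sided, Benjamini-Hochberg adjustment over all genes, threshold 0.05. The SE is the log2 fold change divided by the square root of F. limma 3.58.1 and DESeq2 1.42.0 served as alternatives, and the fit was tested on simulated data. There, 4 against 4 libraries recovered 26% of the genes changed 1.5-fold and 76% of those changed 2-fold, with 6.49% of calls false. A member with a difference near 1.5-fold could thus often go uncalled.

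The members and lists were chosen with earlier results of these data known. Values per library are given for members with no overlap, for the smallest p and highest RPKM of each role, and for the FOXO genes; Akt1, Txnip and Prdx3 were added after their values were seen. Genes listed on more than 1 sequence were left out of level and share comparisons, a change from the planned shares. No member shares exon bases on its strand with another gene. Values of some other pathway genes are not reported here.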

Additional observations from a re-analysis of the deposited data

Results flagged for a closer look

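In 3 of 72 groups of 4 libraries (36 members, 2 groups), 1 library lay far from the other 3 by Dixon's test at the 95% level, where chance alone gives about 1 in 20 groups. Pik3ca read 115 CPM in DKO 4, against 91.1 to 93.9 CPM in the other DKO libraries. Pik3cb read 11.6 CPM in control 3, against 16.6 to 17.4 CPM in the other controls. Sesn1, the sestrin gene with the highest RPKM, read 41.7 CPM in control 3, against 56.3 to 58.0 CPM in the other controls. Both low values belong to the library that also departs from the other controls along exon length, and the part of that departure in them was not tested.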

How the results depend on the processing

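Of 36 members, 27 kept the sign of their log2 fold change in all 21 alternatives, and 6 were called in at least 1. Pik3cd had the fewest counts of the tested members, 46 to 101 per library, and Inpp5d the next fewest, 327 to 481. The exons of Pik3cd, like those of Mtor, are listed on more than 1 sequence, so the counts of both may be incomplete. Over all genes, DESeq2 called 1118, limma-voom with quality weights 1651, edgeR with the replicate number as a block 743 and with a term for the title number split 526. Leaving out the 2 libraries high in oviduct markers, chosen after seeing the data, gave 97, and leaving out 1 library gave 2 (without control 2) to 506 (without control 3). Members called were 3 with DESeq2, 6 with quality weights, 1 with the replicate block (Ddit4), and 0 to 1 with 1 library left out (Rictor, without control 3). Other pathway genes called were 1 with upper quartile factors, library size only or the stricter filter, 6 with DESeq2, 11 with quality weights, 6 with the replicate block, 6 with the title number term, 4 within the 5 libraries with the higher title numbers, 1 without the oviduct-high libraries, and 0 to 3 with 1 library left out. The replicate numbers did not pair all samples: deviations of same-numbered libraries correlated at 0.16, -0.36, 0.31 and 0.47, and 2 of 4 controls matched their own number best, so calls made under the block rest on a number only.

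Some log2 fold changes near 0 turned sign. Mtor was 0.036 within the 5 libraries with higher title numbers and 0.018 without the oviduct-high libraries. Sesn1 was -0.077 with quality weights, -0.0069 with the title number term and -0.037 within those 5. Foxo3 was -0.11 with quality weights and -0.019 with the title number term. Klf15 was 0.056 within those 5, and Gadd45a 0.058 with quality weights. With 1 library left out, Pik3ca ran from -0.22 to 0.0014, Akt2 from -0.025 to 0.051, Gsk3b from -0.23 to 0.019, Mtor from -0.11 to 0.040, Sesn1 from -0.057 to 0.11, Foxo3 from -0.14 to 0.093, Txnip from -0.13 to 0.054, Klf15 from -0.24 to 0.032 and Gadd45a from -0.095 to 0.092. The cause was not tested.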

Other observations

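Some genes around the members had wide differences that did not pass edgeR's quasi-likelihood test, and they are named here after their values were seen. Tbc1d1, whose protein AKT phosphorylates in the control of glucose uptake, read 119, 151, 163 and 162 CPM in controls and 71.5, 72.3, 89.4 and 121 CPM in DKO. Only DKO 4 reached the controls, and the log2 fold change was -0.75 ± 0.18 (adjusted p = 0.0805). Pik3c2g, a class II PI3K gene, ran from 8.11 to 24.5 CPM in controls and from 23.3 to 58.7 CPM in DKO, with control 3 above DKO 2 (log2 1.63 ± 0.43, adjusted p = 0.117). Pik3ap1, an adaptor gene known from B cells, ran from 7.86 to 14.7 CPM in controls and from 11.9 to 29.6 CPM in DKO, with DKO 1 and 2 highest (log2 1.04 ± 0.34, adjusted p = 0.178). Irs2, the gene of an insulin receptor substrate and a FOXO target, ran from 16.4 to 41.5 CPM in controls and stayed between 16.4 and 19.1 CPM in DKO (log2 -0.61 ± 0.26, adjusted p = 0.292). Rragd, a GTPase gene of the amino acid branch of mTOR, ran from 80.3 to 119.5 CPM in controls and from 53.6 to 90.9 CPM in DKO (log2 -0.46 ± 0.17, adjusted p = 0.235).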
